A study of Mus musculus with 209 samples.

Results

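The 39 genes described here encode proteins that make ribosomes. They were taken by symbol from a table of counts for 55011 genes in 209 RNA sequencing libraries of sorted mouse immune cells, and all 39 were in the table. Ribosome biogenesis starts in the nucleolus, where RNA polymerase I transcribes the precursor of the large ribosomal RNAs and small nucleolar ribonucleoproteins (snoRNPs) guide its methylation and pseudouridylation. Large assemblies of processing and folding factors then cleave the precursor and build the small (40S) and large (60S) subunits, which are exported to the cytoplasm for their last maturation steps. The transcription factor Myc is a well known activator of many of these genes in growing cells, including activated lymphocytes and macrophages.

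By role, 3 of the members are subunits of RNA polymerase I (Polr1a, Polr1b, and Polr1c, which RNA polymerase III shares) and 3 are core proteins of the box C/D snoRNPs that methylate ribosomal RNA (Nop56, Nop58 and the methyltransferase Fbl). Another 3 belong to the box H/ACA snoRNPs that make pseudouridine (the synthase Dkc1, with Nhp2 and Gar1), and 6 are nucleolar scaffolds, chaperones and regulators (Ncl, Npm1, Nolc1, Gnl3, Mybbp1a and the RNA helicase Ddx21). The small-subunit processome, which cleaves the precursor on the 40S side, is represented by 7 (Rrp9, Nop14, Utp20, Wdr43, Wdr75, Heatr1 and Noc4l), and 5 act in late 40S assembly and export (Rrp12, Tsr1, Ltv1, Bysl and the endonuclease Nob1). The other 12 act in 60S assembly: Bop1, Wdr12 and Pes1, which form the PeBoW complex, the RNA methyltransferase Nop2, and Rrp1b, Nop16, Noc3l, Mrto4, Ppan, Rrs1, Nifk and Ebna1bp2.

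The study asked how IL1b, IL6 and TNFa change gene expression in immune cell types. C57BL/6J mice aged 5 to 8 weeks received 5 µg of a cytokine intravenously in 120 µL of PBS, or the same volume of PBS alone. In the screen (183 libraries), 1000 cells per library were collected after 2 h by sorting 2 times, from 14 cell types. The peritoneal cavity gave macrophages (written MFpc) and mast cells (MC). By the sample titles, the spleen gave marginal zone (MZB) and follicular (B.fo) B lymphocytes and T lymphocytes of the regulatory (Treg), gamma-delta (Tgd), CD8+ (T.8) and CD4+ (T.4) kinds, as well as NK cells. It also gave the myeloid types GN (neutrophils), pDC (plasmacytoid) and DC.8+ (CD8+) among the dendritic cells, MFrp (macrophages of the red pulp) and Mo.6C+ (monocytes with Ly6C). Each cytokine group held 3 libraries, or 2 for IL1b and IL6 in MC, IL1b in DC.8+, IL6 in NK, TNFa in T.8 and IL6 in B.fo, each PBS group held 4 or 5, and IL1b in pDC is not analysed here. A time course (20 libraries) followed MFpc and Mo.6C+ at 2, 4, 8 and 24 h after TNFa, with 2 libraries per time and 2 of PBS at 24 h, and a further experiment compared Mo.6C+ after 1 ng of LPS (3 libraries) with Mo.6C+ after PBS (3 libraries), at a time the labels do not give.

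Libraries held 1094567 to 9291121 counts. The mean log level of the markers of its own cell type was above that of every library of the other types in 13 of the 14 cell types, and no own marker summed to 0; the exception was T.4, whose markers were also high in Treg. The labels do not say whether libraries came from separate mice, so p-values measure the spread between libraries, which may be technical. In bulk libraries, fewer cells of a type and less RNA per cell cannot be told apart. Values below are CPM (read counts scaled to a common library size) within the libraries of a cell type, differences are log2 fold changes against PBS with their standard errors unless another comparison is named, and a member rose or fell where edgeR's adjusted p over all genes was under 0.05. Within a cell type the 3 cytokines share the PBS libraries. Members named below were picked by adjusted p, by fold change or after their values were seen. A lack of overlap with PBS in such members follows in part from that choice, and the share of all genes without overlap is not given.

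By the GENCODE annotation of GRCm38, 8 members host genes of small nucleolar RNAs in their introns or exons, among them Nop56, Nop58, Gnl3, Wdr43 and Ncl, and 13 overlap a protein-coding gene on either strand. How reads in such overlaps were assigned is not given in the sources used here, so the values of these members are less certain than those of the 20 members with no overlap, such as Polr1b, Nolc1, Nop2, Noc4l, Rrs1 and Nop16.

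Promoter windows from 250 bases before to 50 bases after the transcription start were taken from RefSeq (GRCm38.p6) for 34 of the 39 members; Fbl, Rrp12, Bop1, Rrs1 and Npm1 had no entry. The members raised in the most of the 41 screen comparisons were Nop58, Gnl3, Wdr43 and, level with Nop56 and Ddx21 in number, Nolc1. Their windows are shown because these genes lead many of the results. Capitals mark CACGTG, the E-box letters that Myc with its partner Max is known to bind. The Nop58 window lies at chr1:59684756-59685055 (plus strand), Gnl3 at chr14:31019082-31019381 (minus strand), Wdr43 at chr17:71615965-71616264 (plus strand) and Nolc1 at chr19:46075597-46075896 (plus strand).
Nop58: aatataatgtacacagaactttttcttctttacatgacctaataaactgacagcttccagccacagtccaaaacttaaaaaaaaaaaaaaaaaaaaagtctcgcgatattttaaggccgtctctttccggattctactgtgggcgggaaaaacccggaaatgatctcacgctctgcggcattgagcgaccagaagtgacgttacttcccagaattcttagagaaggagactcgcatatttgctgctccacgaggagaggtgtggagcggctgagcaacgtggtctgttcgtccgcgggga
Gnl3: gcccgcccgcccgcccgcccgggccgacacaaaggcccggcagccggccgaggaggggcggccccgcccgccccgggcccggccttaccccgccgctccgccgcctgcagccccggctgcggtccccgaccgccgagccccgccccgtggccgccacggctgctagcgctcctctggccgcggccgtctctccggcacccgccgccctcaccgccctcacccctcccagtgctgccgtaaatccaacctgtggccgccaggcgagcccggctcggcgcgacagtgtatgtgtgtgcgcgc
Wdr43: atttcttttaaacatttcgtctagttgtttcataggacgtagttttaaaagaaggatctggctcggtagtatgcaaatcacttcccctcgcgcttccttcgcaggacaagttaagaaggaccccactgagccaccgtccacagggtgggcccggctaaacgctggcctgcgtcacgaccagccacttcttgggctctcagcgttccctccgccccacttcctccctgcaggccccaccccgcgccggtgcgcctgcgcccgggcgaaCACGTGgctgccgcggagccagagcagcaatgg
Nolc1: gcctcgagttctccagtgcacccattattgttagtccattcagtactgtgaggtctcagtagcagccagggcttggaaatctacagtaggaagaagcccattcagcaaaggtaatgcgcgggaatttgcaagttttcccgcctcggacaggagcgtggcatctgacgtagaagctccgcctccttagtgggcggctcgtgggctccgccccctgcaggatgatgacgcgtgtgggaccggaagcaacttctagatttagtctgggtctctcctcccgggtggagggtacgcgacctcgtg

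CACGTG reads the same on both strands, and it was found in the windows of 7 of the 34 members (20.6%), against 8.91% of 17491 protein-coding genes and 8.09% of 27025 genes in the same table. Of these matches, 6 lie after the transcription start and 1 lies before it. The stretches around the motif, with up to 10 bases on either side, show which members carry it.
Ltv1: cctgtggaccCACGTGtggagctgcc
Mybbp1a: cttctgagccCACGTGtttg
Nop2: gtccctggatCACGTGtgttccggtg
Pes1: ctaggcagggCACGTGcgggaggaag
Tsr1: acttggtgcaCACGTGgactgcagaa
Utp20: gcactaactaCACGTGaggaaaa
Wdr43: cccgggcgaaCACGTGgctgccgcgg
The windows of Nop58, Gnl3 and Nolc1 do not hold these letters, which says only that they are not in these 300 bases. The motif count is a description, and no binding was measured.

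Across the 41 screen comparisons, members rose 380 times and fell 15 times in 1575 tests (24.1% and 0.952%), against 5.15% of all tests of all genes raised and 4.39% lowered. The median log2 fold change of the members was above 0 in 37 comparisons. Over all cell types 5.76% of tests of all genes were raised after IL1b, 1.46% after IL6 and 8.26% after TNFa. After IL1b at least 1 member rose in 12 of 13 cell types, and 10 or more rose in 5 (MFpc, Mo.6C+, MZB, NK and Tgd). After TNFa at least 1 rose in 12 of 14 cell types, and 10 or more rose in 6 (MFpc, NK, Mo.6C+, pDC, MZB and Treg). After IL6 at least 1 rose in 6 of 14 cell types, and 10 or more rose in MFpc alone.

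**Figure D1:**
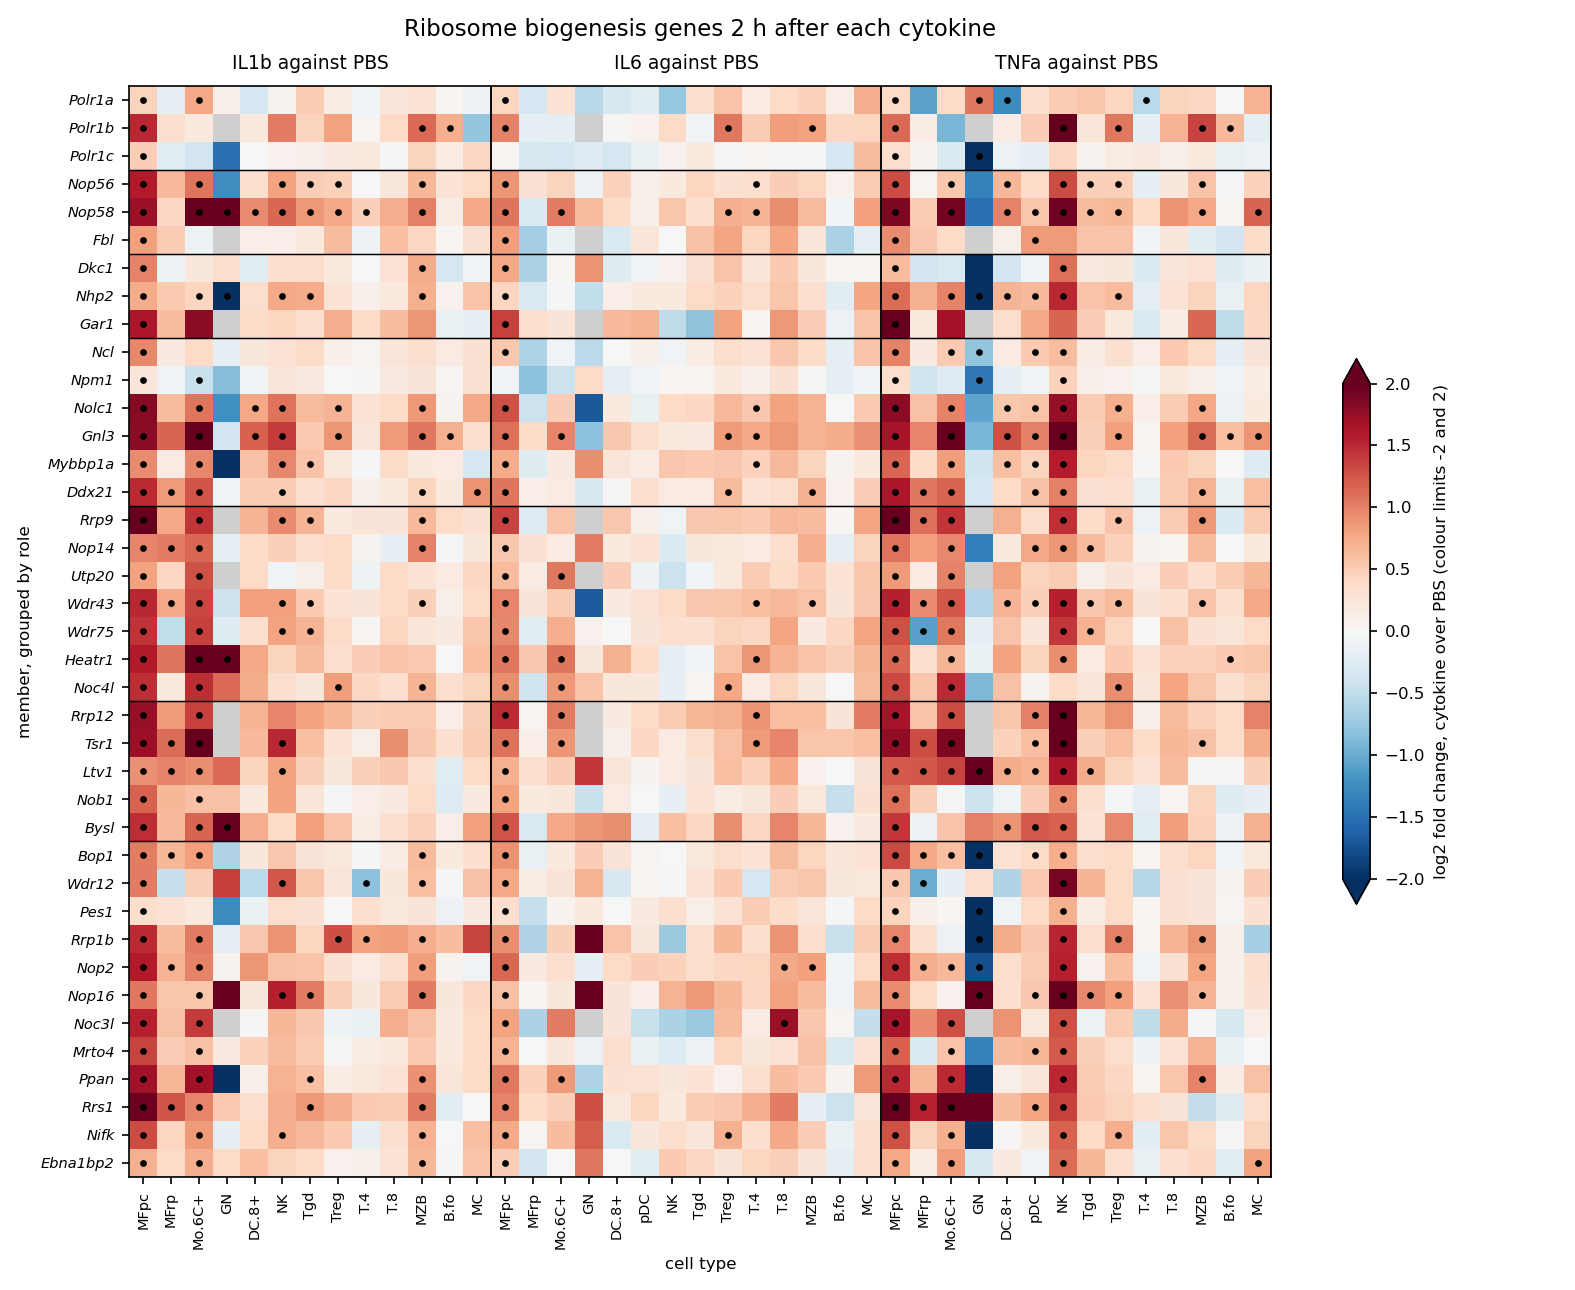
Log2 fold change of the 39 members (rows, grouped by role) against PBS at 2 h in each cell type (columns) after IL1b, IL6 and TNFa, with colours limited to -2 and 2, dots where the adjusted p was under 0.05 and grey where a gene was not tested. Nearly every member carries a dot in the MFpc columns, and the IL6 columns carry few dots outside MFpc. In GN 8 of the 31 members tested are lowered with a dot after TNFa, a share not far above that of all genes given for GN in the text.

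The members differed in how often they were raised. The snoRNP protein Nop58 rose in 22 of 41 comparisons (9 after IL1b, 4 after IL6 and 9 after TNFa), Gnl3 (nucleostemin, a nucleolar GTPase) in 20, and Wdr43, of the processome, in 18. Nolc1, a chaperone of snoRNPs, Nop56 and Ddx21 each rose in 15. At the other end, Polr1c rose in 2, Npm1 (nucleophosmin) and Gar1 in 3, and Fbl (fibrillarin) and Pes1 in 4. Few calls need not mean small changes where counts are low. Gar1 in Mo.6C+ had a mean of 1.06 CPM after PBS. Its log2 fold change of 1.80 ± 0.71 after IL1b did not pass the test (adjusted p = 0.0572). Npm1, Nhp2, Wdr12 and Polr1a were the members that fell in 2 comparisons each.

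**Figure D2:**
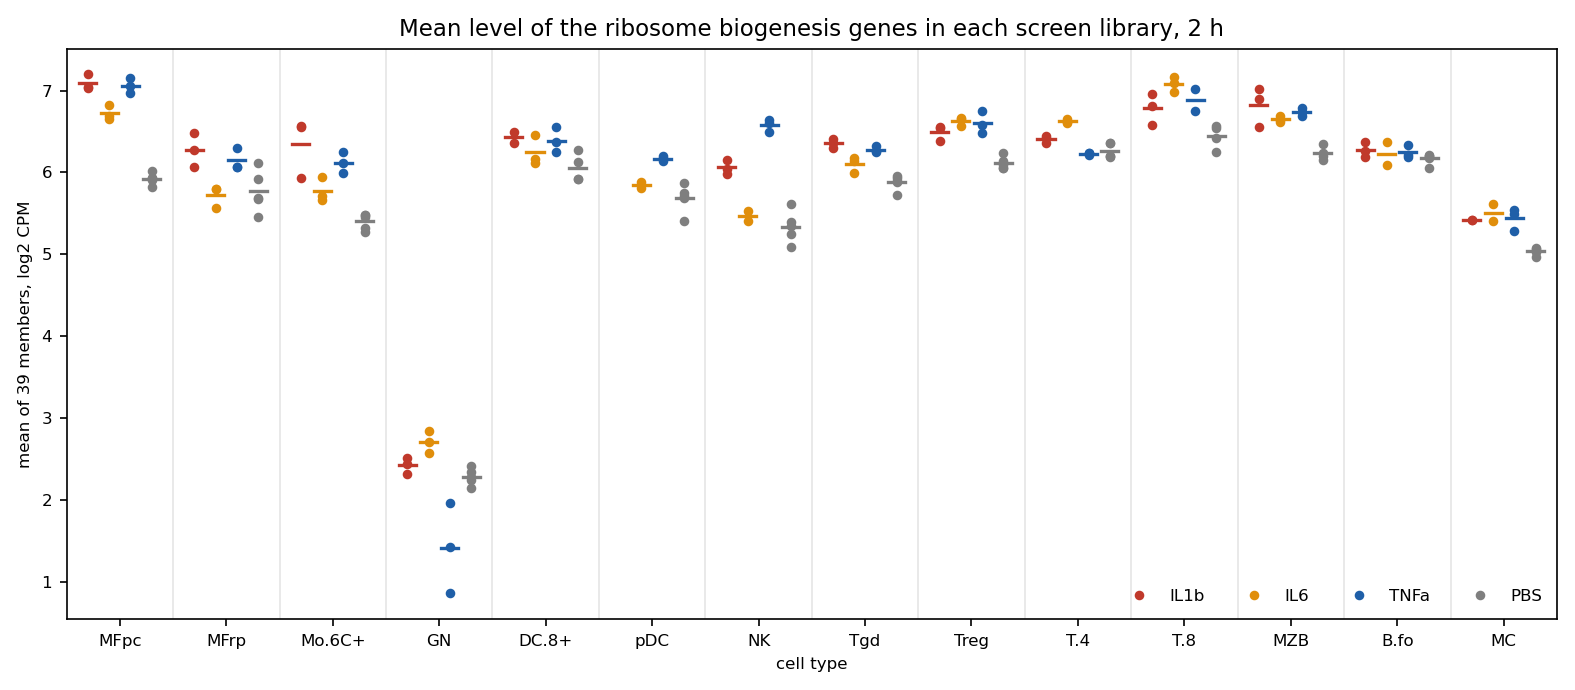
Mean level of the 39 members (log2 CPM on a common scale) in each screen library, by cell type, for IL1b, IL6, TNFa and PBS, with bars at the group means. All MFpc cytokine libraries lie above the MFpc PBS libraries, the NK TNFa libraries lie above all NK PBS libraries, and the 3 GN TNFa libraries lie below the GN PBS libraries.

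In peritoneal macrophages (MFpc) nearly the whole group rose after each cytokine. After IL1b 39 of 39 members rose (background 20.7% of all genes), with a median log2 fold change of 1.45, against -0.01 over all genes tested. After IL6 37 rose (background 9.16%; median 0.89), all but Polr1c and Npm1. After TNFa 39 rose (background 26.6%; median 1.23). The mean member level on the log2 CPM scale was 7.09 ± 0.09 after IL1b, 6.72 ± 0.09 after IL6 and 7.06 ± 0.09 after TNFa (SD, n = 3 each), against 5.92 ± 0.07 after PBS (n = 5). Markers of the peritoneal macrophage itself (5 genes, including Gata6 and Timd4) summed to 13665 to 16581 CPM after IL1b, 13362 to 16064 after IL6 and 15152 to 17773 after TNFa, against 17794 to 19418 after PBS, and the part of this difference in the result was not tested.

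Among the RNA polymerase I subunits in MFpc, Polr1b, a large catalytic subunit, changed most. It had 107, 86.1 and 90.02 CPM after IL1b, 69.3, 53.5 and 76.1 CPM after IL6 and 57.9, 83.8 and 77.1 CPM after TNFa, against 32.2, 30.9, 38.0, 32.3 and 32.5 CPM after PBS. Every cytokine library was above every PBS library. The log2 fold changes were 1.51 ± 0.13 (adjusted p = 1.7e-08) for IL1b, 1.00 ± 0.13 (adjusted p = 2.75e-05) for IL6 and 1.14 ± 0.13 (adjusted p = 5.02e-07) for TNFa. Polr1a, the largest subunit, moved less: 0.44 ± 0.11 after IL1b, 0.42 ± 0.11 after IL6 and 0.40 ± 0.11 after TNFa. Polr1c rose after IL1b (0.49 ± 0.12) and TNFa (0.36 ± 0.12), and its value after IL6 was 0.06 ± 0.12 (adjusted p = 0.793).

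All 6 snoRNP members rose in MFpc after each cytokine. Nop58 had 242, 203 and 225 CPM after IL1b, 145, 145 and 137 CPM after IL6 and 257, 264 and 221 CPM after TNFa, against 58.7, 75.1, 60.9, 71.5 and 72.8 CPM after PBS. The IL6 libraries lay between those of the other cytokines and PBS, with no overlap. The log2 fold change of Nop58 was 1.07 ± 0.10 (adjusted p = 3.21e-07) for IL6 and 1.87 ± 0.10 (adjusted p = 4.04e-12) for TNFa, and that of Nop56 was 1.59 ± 0.09 (adjusted p = 1.66e-11) for IL1b. Dkc1, the pseudouridine synthase, had 114, 119.8 and 117 CPM after IL1b, 121, 96.9 and 84.9 CPM after IL6 and 86.5, 109 and 77.5 CPM after TNFa, against 54.8, 62.5, 68.9, 58.6 and 50.4 CPM after PBS. Its PBS libraries also stayed below all cytokine libraries (0.99 ± 0.13, adjusted p = 3.76e-06 for IL1b; 0.78 ± 0.13, adjusted p = 0.000268 for IL6). Nhp2 rose by 1.11 ± 0.11 (adjusted p = 5.45e-08) after TNFa.

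Of the nucleolar scaffolds and chaperones in MFpc, Nolc1 had 235, 200.4 and 199 CPM after IL1b, 141, 136 and 163 CPM after IL6 and 202, 227 and 195 CPM after TNFa, against 52.5, 60.3, 64.1, 63.1 and 61.0 CPM after PBS. It rose by 1.81 ± 0.10 (adjusted p = 1.15e-11) for IL1b, 1.28 ± 0.10 (adjusted p = 3.58e-08) for IL6 and 1.79 ± 0.10 (adjusted p = 5.78e-12) for TNFa, with no overlap between any cytokine and PBS. Npm1, a histone chaperone and granular-component scaffold of the nucleolus, was the member with the smallest change after each of the 3 cytokines. It had 374, 394 and 374 CPM after IL1b, 313, 288 and 319.8 CPM after IL6 and 445, 378 and 401 CPM after TNFa, against 322, 315, 338, 322 and 307 CPM after PBS. The IL6 and PBS libraries overlapped (-0.06 ± 0.08), while Npm1 rose by 0.25 ± 0.08 after IL1b and by 0.35 ± 0.08 after TNFa.

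On the 40S side, all 7 processome members and all 5 late 40S factors rose in MFpc after each cytokine. Rrp9, a protein of the U3 snoRNP that guides the first cleavages, had 104, 86.8 and 79.6 CPM after IL1b, 64.5, 53.4 and 56.1 CPM after IL6 and 86.0, 93.1 and 106 CPM after TNFa, against 24.6, 21.8, 23.2, 26.3 and 17.1 CPM after PBS. The lowest cytokine library was well above the highest PBS library, and Rrp9 had the largest change of the members after IL1b (1.99 ± 0.13, adjusted p = 2.31e-10; 1.36 ± 0.13, adjusted p = 4.95e-07 for IL6 and 2.07 ± 0.13, adjusted p = 5.27e-11 for TNFa). Tsr1, a late 40S factor, had 125, 119 and 111 CPM after IL1b, 75.7, 74.7 and 80.4 CPM after IL6 and 106, 141 and 126 CPM after TNFa, against 34.1, 38.9, 32.5, 38.3 and 37.6 CPM after PBS. No cytokine group overlapped PBS, with log2 fold changes of 1.70 ± 0.10 (adjusted p = 7.19e-11) for IL1b and 1.77 ± 0.10 (adjusted p = 1.66e-11) for TNFa. Bysl (bystin) rose by 1.25 ± 0.11 (adjusted p = 1.78e-07) after IL6, and Rrp12, an export factor, had the largest change after IL6 (1.49 ± 0.17).

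All 12 members of 60S assembly rose in MFpc after each cytokine. Nop2, which methylates the large ribosomal RNA, had 191, 171 and 188 CPM after IL1b, 141, 135 and 130.2 CPM after IL6 and 159, 188 and 159 CPM after TNFa, against 61.2, 55.8, 56.0, 63.1 and 67.8 CPM after PBS. All cytokine libraries were above all PBS libraries (1.59 ± 0.09, adjusted p = 4.71e-11 for IL1b; 1.15 ± 0.09, adjusted p = 5.53e-08 for IL6; 1.47 ± 0.09, adjusted p = 6.6e-11 for TNFa). Rrs1, which brings the 5S particle into the large subunit, had the largest change after TNFa, with 58.5, 141 and 169.9 CPM against 10.2, 26.0, 22.6, 36.8 and 26.1 CPM after PBS. Its TNFa libraries differed widely among themselves, all of them above PBS (2.33 ± 0.28).

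**Figure D3:**
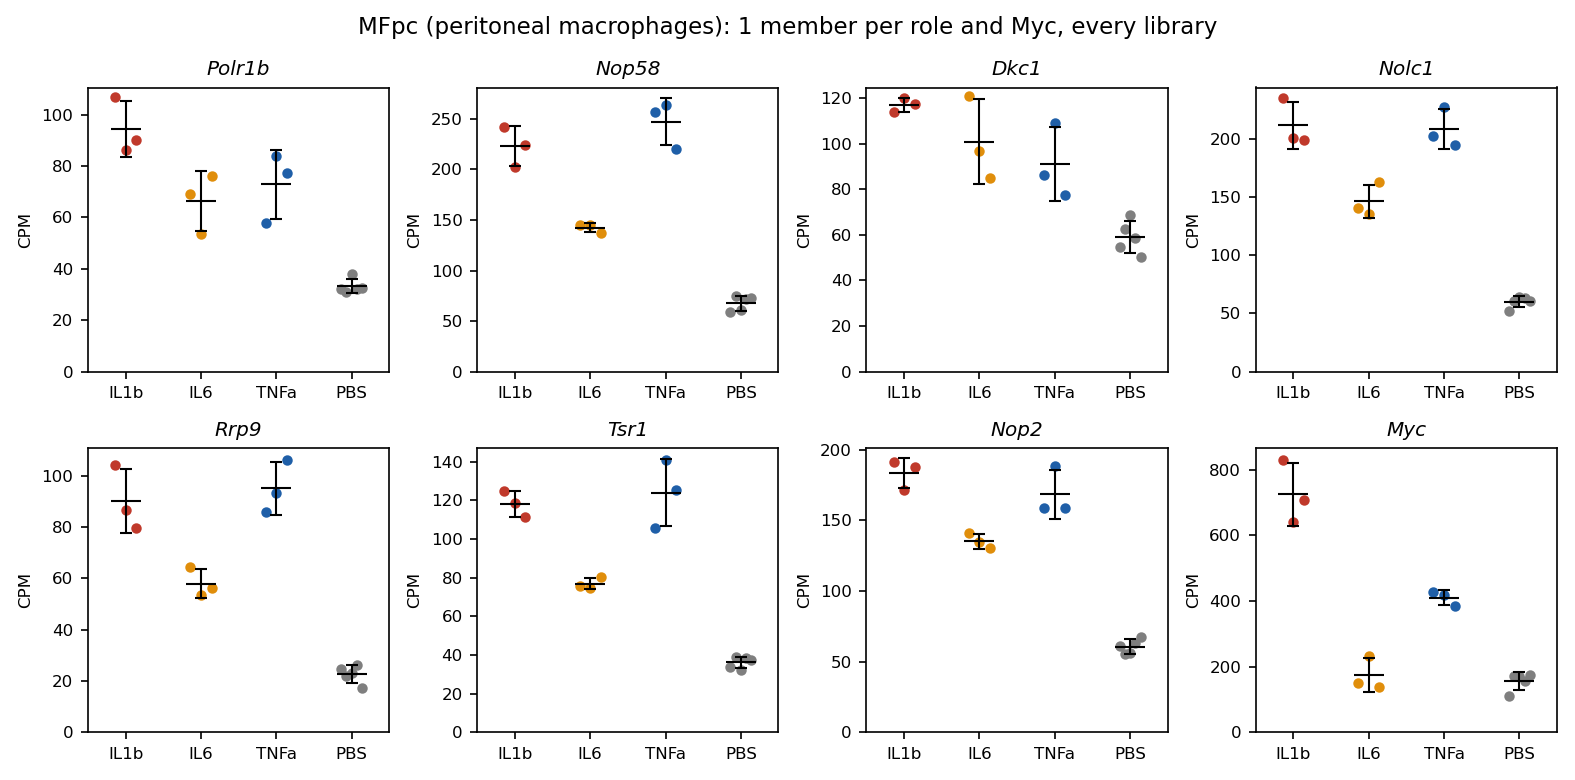
CPM of Polr1b, Nop58, Dkc1, Nolc1, Rrp9, Tsr1, Nop2 and Myc in every MFpc library after IL1b, IL6, TNFa and PBS, with the mean and SD of each group. For the 7 members, which were picked by adjusted p or after their values were seen, every cytokine library lies above every PBS library. The IL6 libraries of Myc overlap those of PBS.

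In natural killer (NK) cells most members rose after TNFa and fewer after IL1b. After TNFa 33 of 39 rose (background 7.65%; median 1.27), after IL1b 15 rose (background 2.17%; median 0.69), and after IL6 edgeR called 0 (background 0%; median 0.16; 9 with an unadjusted p under 0.05; DESeq2 called 0). IL6 in NK has 2 libraries. After TNFa the rise took in 6 of 6 scaffolds and chaperones, 5 of 5 late 40S factors and 12 of 12 members of 60S assembly. The NK markers summed to 14744 to 17017 CPM after TNFa, against 12919 to 14667 CPM after PBS, and their part in the result was not tested.

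Nop58 in NK had 149, 114 and 148 CPM after IL1b, 95.6 and 85.3 CPM after IL6 and 235, 214 and 268 CPM after TNFa, against 76.9, 49.1, 64.8, 66.9 and 51.3 CPM after PBS. The TNFa libraries were the highest and did not overlap any other group (1.95 ± 0.16, adjusted p = 6.84e-08; 1.15 ± 0.16, adjusted p = 0.000157 for IL1b). Nop16, a 60S assembly factor, had 61.6, 49.6 and 40.6 CPM after IL1b, 29.1 and 26.7 CPM after IL6 and 87.5, 105 and 75.8 CPM after TNFa, against 27.0, 10.8, 14.0, 17.3 and 16.7 CPM after PBS. It had the largest change of the members after both IL1b (1.56 ± 0.24, adjusted p = 0.00066) and TNFa (2.38 ± 0.25, adjusted p = 1.36e-06). Wdr43 had 259, 291 and 242 CPM after TNFa against 103, 93.9, 97.3, 94.0 and 59.1 CPM after PBS (1.56 ± 0.15, adjusted p = 5.9e-07), with no overlap. Nolc1 had 269.9, 245 and 254 CPM after TNFa against 78.5, 69.2, 79.9, 77.8 and 76.2 CPM after PBS, again without overlap (1.75 ± 0.14, adjusted p = 5.07e-08).

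Other members rose in NK after TNFa as well. Nhp2 had 197, 186 and 166 CPM after TNFa against 66.4, 70.6, 68.5, 69.9 and 48.4 CPM after PBS, with no overlap (adjusted p = 9.72e-07). Ltv1, a late 40S factor, rose by 1.62 ± 0.21 (adjusted p = 2.35e-05) and Polr1b by 2.01 ± 0.29 (adjusted p = 7.16e-05). Polr1b had 104, 119.8 and 123 CPM after TNFa against 35.2, 47.9, 25.3, 25.4 and 9.998 CPM after PBS, spread widely but without overlap. Noc4l had the smallest change (0.37 ± 0.15, adjusted p = 0.11). After IL1b, Nhp2 (0.76 ± 0.15, adjusted p = 0.00564), Nolc1 (1.09 ± 0.14, adjusted p = 7.21e-05), Rrp9 (0.94 ± 0.16, adjusted p = 0.00142) and Tsr1 (1.51 ± 0.34, adjusted p = 0.0144) had the smallest adjusted p within their roles, while Polr1b was at 1.04 ± 0.29 (adjusted p = 0.056).

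In Ly6C+ monocytes (Mo.6C+), 30 members rose and 1 fell after IL1b (background 19.4% raised and 17.6% lowered; median 0.99). After TNFa 26 rose (background 24.3%; median 0.83), and after IL6 8 rose (background 3.78%; median 0.33). With library totals alone as the scale, 16 rose after TNFa, and without IL6 replicate 3, 4 rose after IL6. All 7 processome members rose after both IL1b and TNFa, whereas the median of the RNA polymerase I subunits was 0.20 after IL1b and -0.29 after TNFa, with 1 and 0 of 3 raised. The red pulp macrophage markers (6 genes, including Hmox1 and Vcam1) summed to 3515 to 5797 CPM after IL1b and 6831 to 9263 CPM after TNFa, against 735 to 950.0 CPM after PBS, and their part in these results was not tested.

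Gnl3 had the largest change in Mo.6C+. It had 50.3, 90.3 and 109 CPM after IL1b, 23.8, 21.9 and 24.8 CPM after IL6 and 58.0, 63.3 and 62.9 CPM after TNFa, against 12.0, 13.2, 10.4, 10.2 and 13.7 CPM after PBS. All 9 cytokine libraries were above the PBS libraries (2.80 ± 0.20, adjusted p = 3.57e-08 for IL1b; 2.36 ± 0.20, adjusted p = 1.04e-07 for TNFa). Nop58 had 122, 141 and 134 CPM after IL1b, 74.2, 66.9 and 57.9 CPM after IL6 and 139, 109 and 121 CPM after TNFa, against 28.9, 32.0, 35.9, 26.9 and 38.6 CPM after PBS. The IL6 libraries again lay between, with no overlap on either side (2.02 ± 0.14, adjusted p = 2.7e-08 for IL1b; 1.03 ± 0.14, adjusted p = 0.000469 for IL6; 1.92 ± 0.14, adjusted p = 2.08e-08 for TNFa).

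Heatr1, a large scaffold of the processome, had 176, 322 and 380.2 CPM after IL1b, 81.3, 127 and 135 CPM after IL6 and 80.0, 91.7 and 90.8 CPM after TNFa, against 52.7, 61.8, 57.4, 55.6 and 46.4 CPM after PBS. The IL1b libraries were the highest, and Heatr1 was the member with the largest change after IL6 (2.42 ± 0.21, adjusted p = 1.93e-07 for IL1b; 1.06 ± 0.21, adjusted p = 0.00519 for IL6). Noc4l, of the same assembly, had 131, 127 and 116 CPM after TNFa against 38.4, 42.5, 43.8, 53.6 and 43.4 CPM after PBS (1.49 ± 0.16, adjusted p = 9.97e-07). Tsr1 rose by 2.32 ± 0.18 (adjusted p = 7.88e-08) after IL1b and by 1.86 ± 0.18 (adjusted p = 4.38e-07) after TNFa, and Ppan, a 60S factor, rose by 1.68 ± 0.19 (adjusted p = 4.55e-06) and by 1.48 ± 0.19 (adjusted p = 9.03e-06) after the same cytokines. Nhp2 rose by 0.43 ± 0.15 (adjusted p = 0.0364) after IL1b and by 0.99 ± 0.15 (adjusted p = 4.65e-05) after TNFa. Polr1a rose by 0.77 ± 0.22 (adjusted p = 0.0125) after IL1b.

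Npm1 was the member that fell in Mo.6C+ after IL1b. It had 175, 205 and 191 CPM after IL1b, 228, 160.0 and 188 CPM after IL6 and 189.7, 208 and 255 CPM after TNFa, against 247, 239, 241, 272 and 297 CPM after PBS. The IL1b libraries were all below the PBS libraries (-0.45 ± 0.14, adjusted p = 0.0188). Polr1b had the lowest log2 fold change after TNFa (-0.92 ± 0.45, adjusted p = 0.102), with 6.89, 4.77 and 23.3 CPM against 21.3, 15.2, 31.8, 20.4 and 20.6 CPM after PBS, and these groups overlapped.

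In marginal zone B cells (MZB), 21 members rose after IL1b (background 2.57%; median 0.60), 13 after TNFa (background 1.66%; median 0.46) and 4 after IL6 (background 0.186%; median 0.49). Without IL1b replicate 2, 11 rose after IL1b, and without IL1b replicate 3, 13 did; after IL6, leaving out any IL6 library or PBS replicate 1, 2 or 3 left 1 or 2, and DESeq2 called 15. Polr1b had 167, 249 and 221 CPM after IL1b, 184, 159 and 162 CPM after IL6 and 259, 264 and 215 CPM after TNFa, against 87.4, 101, 94.7 and 103 CPM after PBS. It rose after all 3 cytokines without overlap (1.14 ± 0.14, adjusted p = 1.64e-05 for IL1b; 0.80 ± 0.14, adjusted p = 0.0155 for IL6; 1.35 ± 0.14, adjusted p = 1.67e-06 for TNFa). Gnl3 had 177, 224 and 244 CPM after IL1b and 238, 229.7 and 207 CPM after TNFa, against 74.0, 121, 102 and 117 CPM after PBS (1.05 ± 0.16, adjusted p = 0.000243 for IL1b; 1.12 ± 0.15, adjusted p = 0.000137 for TNFa). Its cytokine libraries were all above PBS. Ppan rose by 0.99 ± 0.15 (adjusted p = 0.000376) after TNFa, Nop58 by 1.01 ± 0.15 (adjusted p = 0.000374) after IL1b, and Nop2 by 0.82 ± 0.12 (adjusted p = 0.00341) after IL6. Dkc1 had 313, 403 and 375 CPM after IL1b against 232, 193, 237 and 203 CPM after PBS (0.75 ± 0.12, adjusted p = 0.000496), and Nop2 had 159, 183 and 199.9 CPM after IL1b against 116, 97.4, 93.4 and 97.1 CPM after PBS (0.84 ± 0.12, adjusted p = 0.000188). For both, every IL1b library was above every PBS library. Nop14 rose by 0.99 ± 0.17 (adjusted p = 0.00115) after IL1b, where Tsr1 was at 0.54 ± 0.15 (adjusted p = 0.0515). After TNFa Nop56 (0.57 ± 0.11, adjusted p = 0.00371), Rrp9 (0.86 ± 0.15, adjusted p = 0.00153) and Tsr1 (0.59 ± 0.15, adjusted p = 0.0415) rose, and Nhp2 was at 0.44 ± 0.14 (adjusted p = 0.101).

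In follicular B cells (B.fo), few members moved. The TNFa and IL6 libraries of B.fo held 6553203 to 9291121 counts, against 2555640 to 4485774 in the PBS libraries. The part of depth was not tested. Polr1b and Gnl3 rose after IL1b (2 of 39; background 0.745%), and Polr1b, Gnl3 and Heatr1 rose after TNFa (3 of 39; background 1.81%; median 0.00). After IL6 edgeR called 0 (background 0.183%; 5 with an unadjusted p under 0.05; DESeq2 called 1). Polr1b had 99.9, 102 and 80.5 CPM after IL1b and 73.5, 82.9 and 108 CPM after TNFa, against 61.4, 60.9, 59.7, 50.9 and 48.7 CPM after PBS (0.73 ± 0.17, adjusted p = 0.0299 for IL1b; 0.64 ± 0.16, adjusted p = 0.0344 for TNFa). Neither cytokine group overlapped PBS. Leaving out any of the IL1b or PBS libraries left 0 or 1 of the members raised after IL1b, and leaving out any TNFa library, or PBS replicate 1, 3, 4 or 5, left 0 or 1 after TNFa.

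Among T cells, regulatory T cells (Treg) had the most raised members after TNFa, with 12 (background 2.81%; median 0.46), beside 6 after IL1b (background 2.19%) and 6 after IL6 (background 0.363%; median 0.56). Without TNFa replicate 3, 5 rose after TNFa; without IL1b replicate 2 or 3, 3 rose after IL1b; without any of the IL6 libraries, 0 rose after IL6, and without PBS replicate 4, 3 did. Gnl3 and Nop58 rose after all 3 cytokines. Gnl3 had 103, 121 and 131 CPM after IL1b, 117, 105 and 124 CPM after IL6 and 116, 96.2 and 128 CPM after TNFa, against 61.4, 53.6, 69.1, 81.6 and 54.2 CPM after PBS, with no overlap (0.89 ± 0.17, adjusted p = 0.00277 for IL1b; 0.85 ± 0.17, adjusted p = 0.0174 for IL6; 0.82 ± 0.17, adjusted p = 0.00405 for TNFa). Rrp1b, a 60S factor, rose by 1.28 ± 0.19 (adjusted p = 0.000217) after IL1b, and Noc4l by 0.93 ± 0.17 (adjusted p = 0.00174) after TNFa. Polr1b had 113, 158 and 89.5 CPM after TNFa against 66.1, 51.6, 88.7, 41.3 and 40.6 CPM after PBS (1.06 ± 0.23, adjusted p = 0.00754). Rrp1b rose after TNFa as well (1.00 ± 0.19, adjusted p = 0.00218), as did Nop58 (0.66 ± 0.14, adjusted p = 0.00762) and Nhp2 (0.63 ± 0.17, adjusted p = 0.0286), and Tsr1 was at 0.60 ± 0.19 (adjusted p = 0.0769).

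In gamma-delta T cells (Tgd) 10 members rose after IL1b (background 1.23%; median 0.52) and 7 after TNFa (background 1.89%). These counts rest on single libraries: without IL1b replicate 1, 2 or 3, or PBS replicate 3 or 5, 2 to 6 rose after IL1b, and without any TNFa library, or PBS replicate 1, 3 or 4, 0 to 4 rose after TNFa. After IL6 edgeR called 0 (background 0.0147%; 11 with an unadjusted p under 0.05; DESeq2 called 0). Nop16 had 90.7, 58.6 and 76.8 CPM after IL1b and 71.2, 75.5 and 68.7 CPM after TNFa, against 50.2, 40.7, 35.3, 24.7 and 33.3 CPM after PBS (1.03 ± 0.21, adjusted p = 0.0125 for IL1b; 0.96 ± 0.21, adjusted p = 0.0138 for TNFa). Nop58 rose by 0.86 ± 0.15 (adjusted p = 0.00366) after IL1b. Nhp2 (0.74 ± 0.16, adjusted p = 0.0182), Wdr75 (0.68 ± 0.15, adjusted p = 0.0221) and Mybbp1a (0.58 ± 0.15, adjusted p = 0.0454) rose after IL1b too, while Bysl (0.82 ± 0.22, adjusted p = 0.0662) and Polr1a (0.51 ± 0.18, adjusted p = 0.171) did not pass the test.

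In CD4+ T cells (T.4) more members rose after IL6 than after either other cytokine. After IL6 9 rose (background 1.61%; median 0.41), after IL1b 2 rose and 1 fell (background 3.37% and 2.6%), and after TNFa 0 rose and 1 fell (background 3.6% and 2.96%; 5 with an unadjusted p under 0.05; DESeq2 raised 0). Without IL6 replicate 1, 4 rose after IL6, and without IL6 replicate 2, 5 did; after IL1b, leaving out IL1b replicate 2 or 3 or PBS replicate 2 or 3 left 0, PBS replicate 1 or 4 left 1, and PBS replicate 5 gave 4. Tsr1 had 75.7, 101 and 91.9 CPM after IL1b, 144, 139 and 164 CPM after IL6 and 99.8, 114 and 104 CPM after TNFa, against 95.5, 62.3, 96.0, 75.3 and 83.1 CPM after PBS. The IL6 libraries were above all others (0.85 ± 0.15, adjusted p = 0.00222). Rrp12 had 103, 73.9 and 81.9 CPM after IL6 against 42.5, 53.1, 34.7, 50.05 and 52.0 CPM after PBS (0.89 ± 0.18, adjusted p = 0.00574). The members that fell were Wdr12 after IL1b (-0.82 ± 0.21, adjusted p = 0.0207) and Polr1a after TNFa (-0.53 ± 0.14, adjusted p = 0.0168).

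In CD8+ T cells (T.8) 2 members rose after IL6 (background 0.136%; median 0.65), Noc3l (1.73 ± 0.27, adjusted p = 0.0337) and Nop2 (0.77 ± 0.14, adjusted p = 0.0484). In all, 34 members had an unadjusted p under 0.05 and DESeq2 called 21; without any 1 of the 7 libraries edgeR called 0, and with no filter on low counts it called 19. Noc3l had 56.1, 54.0 and 59.98 CPM after IL6 against 21.7, 18.7, 15.3 and 12.9 CPM after PBS, with no overlap. After IL1b edgeR called 0 (background 0.474%; 14 at unadjusted p; DESeq2 called 5), and after TNFa, with 2 libraries, also 0 (background 0.337%; 20 at unadjusted p; DESeq2 called 5). Without IL1b replicate 1, 1 rose after IL1b, and after TNFa 1 rose without PBS replicate 1 and 2 without TNFa replicate 1.

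Plasmacytoid dendritic cells (pDC) responded to TNFa, with 18 members raised (background 7.23%; median 0.50), and to IL6 with 0 calls by edgeR (background 0.137%; 4 with an unadjusted p under 0.05; DESeq2 called 0). Without TNFa replicate 1, 9 rose after TNFa, without replicate 2, 11 did, and with library totals alone 9 did. Bysl had 25.1, 26.6 and 25.1 CPM after IL6 and 51.3, 96.3 and 58.3 CPM after TNFa, against 34.6, 31.5, 29.7, 31.2 and 18.8 CPM after PBS. The TNFa libraries alone were above PBS (1.23 ± 0.22, adjusted p = 0.000813). Gnl3 had 87.8, 83.8 and 115 CPM after TNFa against 49.4, 52.0, 48.7, 47.6 and 41.02 CPM after PBS (1.00 ± 0.15, adjusted p = 0.000164), and Fbl, seldom called elsewhere, rose by 0.85 ± 0.16 (adjusted p = 0.00169). Nhp2 (0.64 ± 0.14, adjusted p = 0.00494), Nop14 (0.78 ± 0.19, adjusted p = 0.00881) and Mrto4, which acts in assembly of the ribosomal stalk (0.66 ± 0.18, adjusted p = 0.0192), rose in pDC after TNFa, and Polr1b was at 0.49 ± 0.22 (adjusted p = 0.155). Mast cell markers (6 genes) summed to 77.2 to 101 CPM after TNFa in pDC, against 9.28 to 25.3 CPM after PBS. Plasma cell markers (3 genes) summed to 21.0 to 36.8 CPM after TNFa, against 52.4 to 86.6 CPM after PBS. Proliferation markers summed to 10.2 to 19.0 CPM (median 13.2) after TNFa in pDC, against 9.11 to 66.9 CPM (median 57.9) after PBS. Their part in the result was not tested.

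CD8+ dendritic cells (DC.8+) had 9 members raised and 1 lowered after TNFa (background 8.05% and 7.48%), 3 raised after IL1b (background 3.38%) and 0 called after IL6 by edgeR (background 0.107%; 4 with an unadjusted p under 0.05; DESeq2 called 0). Erythroid markers (5 genes) reached 701 CPM in IL1b replicate 2 and 242 CPM in PBS replicate 4, and without both 2 members rose after TNFa and 0 after IL1b. After TNFa the count was 5 without PBS replicate 2, 4 without PBS replicate 4, 2 without PBS replicate 5, 3 without TNFa replicate 1 or 2, and 2 with library totals alone; after IL1b it was 0 or 1 without either IL1b library or PBS replicate 2 or 5. Gnl3 had 63.9 and 96.6 CPM after IL1b and 96.2, 109 and 51.0 CPM after TNFa, against 30.9, 36.2, 40.4 and 34.0 CPM after PBS, with no overlap (1.18 ± 0.28, adjusted p = 0.0206 for IL1b; 1.27 ± 0.25, adjusted p = 0.00269 for TNFa). Polr1a fell after TNFa, with 59.5, 42.7 and 43.0 CPM against 149.9, 113, 116 and 83.5 CPM after PBS, again with no overlap (-1.26 ± 0.23, adjusted p = 0.00193). The red pulp macrophage markers summed to 1638 to 2262 CPM after TNFa in DC.8+, against 492.8 to 1369.8 CPM after PBS, and their part in the result was not tested. Nop58 had 183, 209 and 150.3 CPM after TNFa against 99.97, 99.6, 92.6 and 73.4 CPM after PBS (0.99 ± 0.19, adjusted p = 0.00206). The late 40S factor Ltv1 (0.75 ± 0.20, adjusted p = 0.0172), Nhp2 (0.68 ± 0.21, adjusted p = 0.039) and Wdr43 (0.68 ± 0.21, adjusted p = 0.0448) rose as well, and Rrs1 was at 0.62 ± 0.20 (adjusted p = 0.0508).

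In red pulp macrophages (MFrp) 8 members rose after IL1b (background 6.64%; median 0.58) and 8 rose and 2 fell after TNFa (background 11.5% and 10.1%). After IL6 edgeR called 0 (background 0.387%; median -0.14; 2 with an unadjusted p under 0.05; DESeq2 called 0). After IL1b, 0 rose without IL1b replicate 1 or 3, 2 without IL1b replicate 2, and 3 to 5 without PBS replicate 1, 3, 4 or 5; after TNFa 14 rose without PBS replicate 2 and 5 with library totals alone. Rrs1 had 124, 61.1 and 92.3 CPM after IL1b, 52.3, 55.4 and 45.1 CPM after IL6 and 89.9, 106 and 139 CPM after TNFa, against 19.3, 40.2, 26.0, 58.0 and 49.8 CPM after PBS. The IL1b and TNFa libraries were above all PBS libraries (1.27 ± 0.32, adjusted p = 0.0155 for IL1b; 1.53 ± 0.32, adjusted p = 0.00259 for TNFa). Ltv1 rose by 1.24 ± 0.23 (adjusted p = 0.00115) after TNFa. Ddx21 had 218, 116 and 223 CPM after TNFa against 87.1, 109, 109.6, 74.8 and 66.7 CPM after PBS (1.05 ± 0.22, adjusted p = 0.00319). Nop58 (0.51 ± 0.28, adjusted p = 0.217), Nhp2 (0.70 ± 0.36, adjusted p = 0.175) and Polr1a (-1.07 ± 0.51, adjusted p = 0.147) did not pass the test after TNFa in MFrp. The neutrophil markers summed to 306 to 319 CPM after IL1b in MFrp, against 74.6 to 195 CPM after PBS, and their part in the result was not tested. The members that fell after TNFa were Wdr75, with 76.6, 46.3 and 27.7 CPM against 122, 117, 99.0, 111 and 88.2 CPM after PBS (-1.09 ± 0.26, adjusted p = 0.00799), and Wdr12 (-0.998 ± 0.33, adjusted p = 0.0432). Erythroid markers summed to 954 to 10873 CPM after TNFa and 1103 to 46665 CPM after PBS, and without PBS replicates 1 to 3, which are rich in haemoglobin RNA, 0 members fell; 1 fell without PBS replicate 1, 2 or 5 or TNFa replicate 2 or 3.

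Mast cells (MC) had 3 members raised after TNFa (background 2.58%; median 0.42), 1 after IL1b (background 1.77%; Ddx21, 0.89 ± 0.20, adjusted p = 0.0151) and 0 called after IL6 by edgeR (background 0.349%; 13 with an unadjusted p under 0.05; DESeq2 called 1). Nop58 had 105 and 102 CPM after IL1b, 92.3 and 123 CPM after IL6 and 156, 122 and 136 CPM after TNFa, against 60.3, 67.7, 40.3 and 76.6 CPM after PBS. All cytokine libraries were above PBS, and TNFa passed the test (1.16 ± 0.20, adjusted p = 0.000622). Without PBS replicate 4 or 5, or TNFa replicate 1 or 3, 1 rose after TNFa, and without either IL1b library 0 rose after IL1b.

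Neutrophils (GN) held the lowest levels, and 31 members could be tested. After TNFa 3 rose and 8 fell (background 18.5% and 19%), with a median of -0.91, against -0.21 over all genes tested. The raised share of the members was thus below that of all genes, and the lowered share was not far above it. After IL1b 3 rose and 1 fell (background 12.9% and 9.44%; median -0.17), and after IL6 edgeR called 0 (background 5.23%; 5 with an unadjusted p under 0.05; DESeq2 called 2). The neutrophil markers (6 genes, including S100a8 and S100a9) summed to 189558 to 194304 CPM after IL1b and 173911 to 215074 CPM after TNFa, against 64595 to 92803 CPM after PBS, and the red pulp macrophage markers to 1556 to 1890.3 CPM after IL1b, 3753 to 4368 CPM after IL6 and 1213 to 1424 CPM after TNFa, against 4727 to 5354 CPM after PBS. The part of these markers in the result was not tested. With library totals alone, which moves the median of all genes by -0.78, 1 rose and 13 fell after TNFa; without PBS replicate 2, 5 fell.

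Pes1, of the PeBoW complex, fell most in GN. It had 16.2, 6.68 and 8.62 CPM after IL1b, 24.2, 32.3 and 31.5 CPM after IL6 and 0.792, 0 and 1.54 CPM after TNFa, against 13.6, 21.6, 36.5, 19.9 and 36.3 CPM after PBS. The TNFa libraries were near 0 and below every other group (adjusted p = 8.16e-06). Bop1 of the same complex had 2.90, 0 and 0 CPM after TNFa against 8.32, 21.6, 8.93, 20.5 and 5.74 CPM after PBS (adjusted p = 0.00273), and Ncl (nucleolin) fell as well (-0.79 ± 0.29, adjusted p = 0.039). Polr1c, Nhp2, Nop2, Rrp1b and Npm1 were the others that fell. Of these, Nhp2 had 1.32, 0 and 1.84 CPM after TNFa against 14.0, 7.42, 3.23, 13.4 and 19.7 CPM after PBS (adjusted p = 0.0027). Every TNFa library was below every PBS library, at very low levels. Among members that did not pass, Nop56 had an adjusted p of 0.0754 and Noc4l of 0.232. Against this direction, Polr1a had 167, 130.0 and 136 CPM after TNFa against 53.3, 76.0, 99.4, 65.4 and 52.4 CPM after PBS, with no overlap (1.06 ± 0.23, adjusted p = 0.00136), and Ltv1 had 38.3, 17.5 and 23.7 CPM against 8.01, 2.12, 2.47, 3.64 and 2.30 CPM after PBS (2.82 ± 0.55, adjusted p = 0.00056). Nop16 had the largest fitted change, from 10.6, 0 and 1.23 CPM after TNFa against 1.08, 0, 0, 0 and 0 CPM after PBS, which rests on TNFa replicate 1.

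After IL1b, Heatr1 in GN had 51.5, 67.9 and 86.0 CPM against 3.85, 1.41, 3.42, 9.01 and 18.6 CPM after PBS, with no overlap (3.26 ± 0.72, adjusted p = 0.00326). Bysl (2.08 ± 0.55, adjusted p = 0.0103) and Nop58 (2.97 ± 1.01, adjusted p = 0.0437) also rose, and Nhp2 fell (-2.15 ± 0.70, adjusted p = 0.0358). Without IL1b replicate 2 or 3, 1 member rose, and without PBS replicate 1, 5 did; after IL6, 2 rose without PBS replicate 1.

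Direct contrasts between cytokines do not rest on the PBS libraries. In MFpc 24 members were higher after IL1b than after IL6 (background 9.99%; median difference 0.44 on the log2 scale) and 23 were higher after TNFa than after IL6 (background 19.6%; median 0.41). The member with the smallest adjusted p was Nop56 for IL1b against IL6 (0.70 ± 0.10, adjusted p = 2.88e-05) and Nop58 for TNFa against IL6 (0.80 ± 0.11, adjusted p = 1.09e-05). Between TNFa and IL1b, Nhp2 was higher after TNFa (0.38 ± 0.13, adjusted p = 0.0475) and Wdr12 (-0.48 ± 0.13, adjusted p = 0.0116) and Rrp1b (-0.52 ± 0.17, adjusted p = 0.0439) were lower (background 7.82% and 8.37%). For IL1b against IL6 12 were higher without IL1b replicate 1, 14 without IL6 replicate 2 and 13 with library totals alone. For TNFa against IL6 8 were higher with library totals alone, a scale that also gave 11 differing between TNFa and IL1b. That last count was 0 or 1 without IL1b replicate 2 or 3 or TNFa replicate 1 or 3.

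In Mo.6C+ 14 members were higher after IL1b than after IL6 (background 11.1%) and 15 were higher after TNFa than after IL6 (background 18.6%; 7 with library totals alone), led in both by Gnl3 (1.82 ± 0.23, adjusted p = 3.73e-05 and 1.38 ± 0.23, adjusted p = 0.000177). Between TNFa and IL1b, Heatr1 (-1.74 ± 0.24, adjusted p = 0.000137) and Rrp1b (-1.15 ± 0.36, adjusted p = 0.0445) were lower after TNFa, and Rrs1 (1.17 ± 0.37, adjusted p = 0.0469) and Nhp2 (0.56 ± 0.17, adjusted p = 0.0404) were higher (background 6.55% and 7.23%), and 1 or 2 differed without IL1b replicate 2 or 3 or TNFa replicate 1 or 2. In NK 28 members were higher after TNFa than after IL6 (background 3.36%; median 1.15), 17 without IL6 replicate 1 and 11 without IL6 replicate 3. Nop58, Nhp2, Wdr43 and Nolc1 were higher after TNFa than after IL1b in NK (4 of 39; background 0.518%), 0 or 1 without any of the TNFa libraries or without IL1b replicate 2 or 3. In T.4 6 members were lower after TNFa than after IL6 (background 0.906%; median -0.41), led by Nop56 (-0.55 ± 0.11, adjusted p = 0.00408); 1 was lower without TNFa replicate 1 or 3.

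Whether like cell types responded differently was tested as the difference between their responses, and within a pair the 3 cytokines share the PBS libraries. All members called between peritoneal and red pulp macrophages had the higher log2 fold change in MFpc: 11 for IL1b (background 2.25%; median difference of responses 0.76), 10 for IL6 (background 0.303%; median 0.86) and 9 for TNFa (background 4.48%; median 0.74). Wdr75, a processome member, led for IL1b (1.93 ± 0.28, adjusted p = 8.5e-05) and TNFa (2.31 ± 0.29, adjusted p = 4.52e-06), and Nolc1 led for IL6 (1.70 ± 0.23, adjusted p = 0.000437). For Nolc1 the difference was 1.15 ± 0.23 (adjusted p = 0.00212) after IL1b and 1.17 ± 0.23 (adjusted p = 0.00112) after TNFa, and for Nop58 it was 1.28 ± 0.31 (adjusted p = 0.014) after IL1b. Wdr75 was lower in MFpc than in MFrp after PBS (-1.06 ± 0.17, adjusted p = 1.39e-05). After TNFa Wdr75 (-1.09 ± 0.26) and Wdr12 (-0.998 ± 0.33), both called in this contrast, fell in MFrp itself. Without the 3 haemoglobin-rich MFrp PBS libraries no member was called lowered there. The counts rest on few libraries: for IL1b 2 to 7 without any MFpc IL1b library or MFrp IL1b replicate 1 or 2, for IL6 1 to 5 without any IL6 library, any MFpc PBS library or MFrp PBS replicate 1 or 2, and for TNFa 15 without MFrp PBS replicate 5.

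Between MFpc and Mo.6C+ the TNFa response differed for 15 members (background 11.1% higher and 6.48% lower), larger in MFpc for 14, among them Nop2 (0.84 ± 0.16, adjusted p = 0.000475) and Polr1b (2.09 ± 0.46, adjusted p = 0.00174), and smaller in MFpc for Gnl3 (-0.69 ± 0.23, adjusted p = 0.0382). It differed for 5 to 9 without MFpc TNFa replicate 1 or 2, MFpc PBS replicate 1 or 3, Mo.6C+ TNFa replicate 1 or 2 or Mo.6C+ PBS replicate 3, and for 9 with the RLE scale. The IL1b response differed for 8 members (background 6.82% and 5.81%). It was larger in MFpc for Npm1, Polr1c, Nop2, Mrto4 and Nolc1, and smaller in MFpc for Gnl3 (-1.01 ± 0.23, adjusted p = 0.0033), Heatr1 and Tsr1; 3 to 5 differed without any MFpc IL1b library or Mo.6C+ IL1b replicate 1. The IL6 response differed for Nop2 alone (0.85 ± 0.16, adjusted p = 0.00701; background 0.529%), and for 2 or 3 members without MFpc PBS replicate 5, Mo.6C+ IL6 replicate 1 or Mo.6C+ PBS replicate 1 or 4.

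Between MZB and B.fo, Dkc1 rose more in MZB after IL1b (1.07 ± 0.20, adjusted p = 0.0241; background 0.0889%), and Ddx21 (0.85 ± 0.17, adjusted p = 0.0456) and Rrp9 (1.14 ± 0.22, adjusted p = 0.0456) rose more in MZB after TNFa (background 0.0547%). For IL6 edgeR called 0 (background 0.00684%; 15 with an unadjusted p under 0.05; DESeq2 was not run on differences of responses). Without MZB IL1b replicate 1, 6 members differed after IL1b, and 0 did without MZB IL1b replicate 2 or 3, MZB PBS replicate 2 or 4 or B.fo IL1b replicate 3. After TNFa 0 or 1 differed without any MZB library, any B.fo TNFa library or B.fo PBS replicate 2, 4 or 5. Few members thus passed the test of the difference between these B cells, although the counts of raised members were larger in MZB.

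The time course followed TNFa over 24 h, and all times share the PBS libraries at 24 h. In MFpc 29 members were raised at 2 h (background 18.1%; median 1.07), 36 at 4 h (background 18.7%; median 1.52), 31 at 8 h (background 15.6%; median 1.02) and 0 at 24 h by edgeR (background 3.81%; median 0.07; 4 with an unadjusted p under 0.05; DESeq2 called 0). The mean member level was 5.41 ± 0.05 log2 CPM after PBS, 6.47 ± 0.01 at 2 h, 6.87 ± 0.15 at 4 h, 6.39 ± 0.02 at 8 h and 5.41 ± 0.57 at 24 h (SD, n = 2 each). The libraries of 24 h lay far apart, and without the lower of them (replicate 2) 9 members were raised at 24 h; at 8 h 17 were raised without PBS replicate 2, and at 2 h 16 were with library totals alone, which moves the median of all genes by -0.49. All 39 members were raised in the MFpc screen at 2 h, so the 29 raised at 2 h in the course could only be among them. They made up 74.4% of the screen's raised members, and this overlap is no test of the course.

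In Mo.6C+ 24 members were raised at 2 h (background 19.7%; median 0.88), 31 at 4 h (background 15.9%; median 1.20), 29 at 8 h (background 11.5%; median 1.12) and 0 at 24 h by edgeR (background 2.74%; median -0.24; 10 with an unadjusted p under 0.05; DESeq2 called 0). At 8 h 18 were raised without PBS replicate 2, and at 2 h 12 were with library totals alone, which moves the median of all genes by -0.43. Of the 24 raised at 2 h, 23 were among the 26 raised in the Mo.6C+ screen (95.8% of the course and 88.5% of the screen). The overlap over all genes is not given, so this overlap cannot be read as particular to the members. Red pulp macrophage markers summed to 3758 to 5563 CPM at 2 h, 4244 to 5008 CPM at 4 h and 1772 to 4092 CPM at 8 h in Mo.6C+, against 655 to 773 CPM after PBS. Neutrophil markers in Mo.6C+ summed to 1271 to 1416 CPM at 2 h, 448 to 590.1 CPM at 4 h and 293 to 378 CPM at 8 h, against 395 to 409 CPM after PBS. In MFpc they summed to 463 to 517 CPM at 2 h, against 234 to 237 CPM after PBS. Plasma cell markers (3 genes) in Mo.6C+ summed to 48.8 to 49.6 CPM at 2 h and 81.0 to 150 CPM at 4 h. They summed to 32.5 to 181 CPM at 8 h and 113 to 179 CPM at 24 h, against 3.48 to 12.2 CPM after PBS. Markers of DC.8+ in Mo.6C+ summed to 737 to 860 CPM at 8 h, against 357 to 362 CPM after PBS. Those of NK were lower at 8 h, with 4.52 to 5.06 CPM against 12.5 to 24.6 CPM after PBS. Proliferation markers (5 genes, including Mki67 and Top2a) summed to 430.1 to 441 CPM at 2 h and 377 to 396 CPM at 24 h in Mo.6C+, against 99.8 to 124 CPM after PBS. In MFpc they summed to 36.8 to 38.7 CPM at 24 h, against 186 to 188 CPM after PBS. The part of these markers in the results was not tested.

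**Figure D4:**
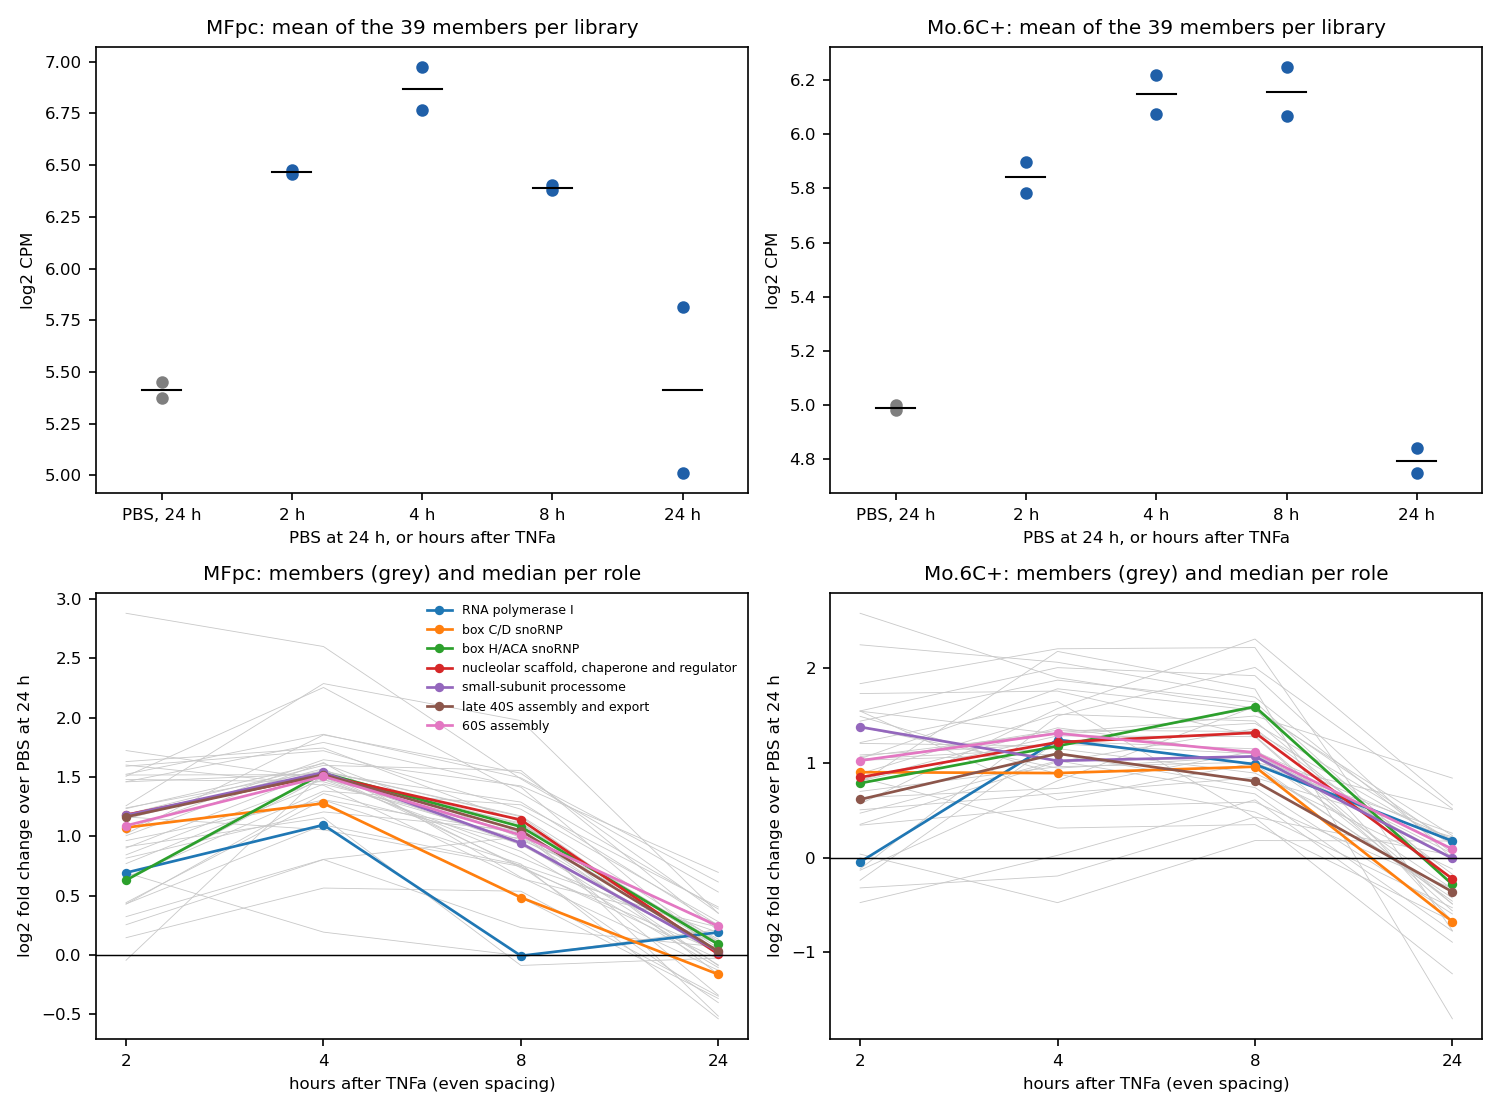
Time course of TNFa in MFpc and Mo.6C+: mean level of the members per library (log2 CPM, upper panels) and log2 fold change against PBS at 24 h for each member (grey lines) and as the median of each role (coloured lines, lower panels), over PBS, 2, 4, 8 and 24 h at even spacing. The member level peaks at 4 h in MFpc, is about level from 4 to 8 h in Mo.6C+, and is close to PBS at 24 h in both.

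Single members followed different courses. In MFpc 6 members were highest at 2 h, 32 at 4 h and 1 at 8 h, and in Mo.6C+ 7 were highest at 2 h, 17 at 4 h and 15 at 8 h. These counts rest on 2 libraries per time and on no test. The share of all genes highest at each time is not given, so they cannot be read as particular to the members. Rrs1 in MFpc was an early member: it had 27.6 and 27.2 CPM after PBS, 200.05 and 203 CPM at 2 h, 179 and 153 CPM at 4 h, 83.0 and 70.0 CPM at 8 h and 53.7 and 25.3 CPM at 24 h (2.88 ± 0.28, adjusted p = 5.62e-06 at 2 h). Dkc1 in MFpc was later, with 51.3 and 52.4 CPM after PBS, 49.9 and 50.7 CPM at 2 h, 161 and 139 CPM at 4 h, 119.7 and 99.7 CPM at 8 h and 44.3 and 28.1 CPM at 24 h. The 2 h libraries were at the PBS level, and the step between 2 h and 4 h passed the test itself (1.58 ± 0.21, adjusted p = 0.00099). The MFpc screen differed: there Dkc1 was raised 2 h after TNFa (77.5 to 109 CPM), above all PBS libraries of the screen. The late start of Dkc1 thus holds for the course alone, whose PBS libraries are of 24 h. Its rise against PBS at 4 h was 1.53 ± 0.21 (adjusted p = 0.000125).

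Polr1b in MFpc had 37.0 and 40.8 CPM after PBS, 68.1 and 78.5 CPM at 2 h, 94.5 and 79.2 CPM at 4 h, 36.1 and 37.1 CPM at 8 h and 44.9 and 31.5 CPM at 24 h. It was back within the range around PBS at 8 h, and the step from 4 h to 8 h passed the test (-1.25 ± 0.21, adjusted p = 0.00227). Bop1, of the PeBoW complex, stayed up longer, with 58.6 and 52.8 CPM after PBS, 122 and 104 CPM at 2 h, 209 and 194 CPM at 4 h, 163 and 159 CPM at 8 h and 83.5 and 58.7 CPM at 24 h (1.86 ± 0.19, adjusted p = 1.25e-05 at 4 h; 1.53 ± 0.19, adjusted p = 9.15e-05 at 8 h). Rrp12 rose by 2.29 ± 0.35 (adjusted p = 0.00029) at 4 h and was still at 1.98 ± 0.35 at 8 h, and Mybbp1a, a nucleolar protein first found as a Myb partner, rose by 1.55 ± 0.21 (adjusted p = 0.000104) at 4 h. Nop58 in MFpc had 73.0 and 59.9 CPM after PBS, 206 and 205 CPM at 2 h, 250.4 and 195 CPM at 4 h, 142 and 147 CPM at 8 h and 79.4 and 39.05 CPM at 24 h (1.74 ± 0.26, adjusted p = 0.00027 at 4 h). It was above both PBS libraries from 2 h to 8 h, and at 24 h 1 library lay above them and the other below. Noc4l had 38.6 and 31.6 CPM after PBS, 84.0 and 81.8 CPM at 2 h, 108 and 98.3 CPM at 4 h, 74.9 and 83.3 CPM at 8 h and 41.5 and 34.5 CPM at 24 h (1.55 ± 0.18, adjusted p = 3.73e-05 at 4 h).

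In Mo.6C+, Nop58 was an early member, with 31.4 and 27.3 CPM after PBS, 209 and 141 CPM at 2 h, 104 and 115 CPM at 4 h, 100.1 and 74.7 CPM at 8 h and 16.8 and 20.02 CPM at 24 h. It was above PBS in every library up to 8 h and below it at 24 h (2.58 ± 0.26, adjusted p = 1.58e-05 at 2 h; 1.90 ± 0.25, adjusted p = 0.000136 at 4 h; 1.57 ± 0.25, adjusted p = 0.000872 at 8 h). Polr1a was late, with 25.9 and 39.04 CPM after PBS, 27.3 and 32.2 CPM at 2 h, 82.5 and 100.1 CPM at 4 h, 131 and 129.5 CPM at 8 h and 37.9 and 54.8 CPM at 24 h. At 2 h its value was -0.12 ± 0.27 (adjusted p = 0.745), whose sign changed when PBS replicate 2 or TNFa 2 h replicate 1 was left out. The step from 2 h to 4 h passed the test (1.61 ± 0.26, adjusted p = 0.00347), and at 8 h Polr1a stood at 2.00 ± 0.26 (adjusted p = 0.000244).

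Gnl3 in Mo.6C+ had 10.8 and 14.9 CPM after PBS, 46.6 and 45.2 CPM at 2 h, 50.5 and 68.0 CPM at 4 h, 53.3 and 66.2 CPM at 8 h and 6.32 and 8.78 CPM at 24 h, a plateau followed by values below PBS. Nhp2 had 46.0 and 45.6 CPM after PBS, 118 and 93.6 CPM at 2 h, 98.9 and 108 CPM at 4 h, 142 and 132 CPM at 8 h and 57.9 and 43.2 CPM at 24 h (1.58 ± 0.22, adjusted p = 0.000339 at 8 h). Tsr1 had 16.7 and 12.9 CPM after PBS, 77.2 and 63.6 CPM at 2 h, 64.4 and 59.4 CPM at 4 h, 45.0 and 50.9 CPM at 8 h and 15.6 and 14.9 CPM at 24 h (2.06 ± 0.24, adjusted p = 5.55e-05 at 4 h). All 6 Tsr1 values from 2 h to 8 h lay above PBS, the 8 h values lay below those of 2 h and 4 h, and those of 24 h lay within the range of PBS. Rrs1 had 23.1 and 19.7 CPM after PBS, 78.7 and 63.6 CPM at 2 h, 73.3 and 71.4 CPM at 4 h, 55.1 and 49.1 CPM at 8 h and 18.7 and 11.8 CPM at 24 h (1.76 ± 0.26, adjusted p = 0.000281 at 4 h). Wdr75 rose by 1.78 ± 0.26 (adjusted p = 0.000267) and Gnl3 by 2.20 ± 0.28 (adjusted p = 0.000105) at 4 h. Noc4l was the member that fell between 2 h and 4 h in Mo.6C+ (-0.94 ± 0.21, adjusted p = 0.0156).

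Steps between neighbouring times do not rest on PBS. Between 2 h and 4 h, 4 members rose in MFpc (Dkc1, Bop1, Wdr12 and Utp20; background 4.51%), and 2 rose (Polr1a and Rrp12) and 1 fell in Mo.6C+ (background 5.06% and 5.25%). Between 4 h and 8 h, 6 fell in MFpc (background 4.22%) and 1, Noc3l, in Mo.6C+ (background 7.61%). Between 8 h and 24 h, 29 fell in MFpc (background 11.4%; median -0.95) and 34 in Mo.6C+ (background 6.02%; median -1.40). The strongest of these were Dkc1 in MFpc (-1.60 ± 0.21, adjusted p = 0.000257) and Gnl3 in Mo.6C+ (-2.98 ± 0.29, adjusted p = 0.00013). The last step gave 17 members in MFpc without TNFa 24 h replicate 2, and in Mo.6C+ it gave 21 without TNFa 24 h replicate 1 and 15 without replicate 2. In MFpc the step from 2 h to 4 h gave 1 without any of its 4 libraries, and 11 with library totals alone; the step from 4 h to 8 h gave 1 without 4 h replicate 1 and 2 without 4 h replicate 2 or 8 h replicate 1. In Mo.6C+ the step from 2 h to 4 h gave 12 without 2 h replicate 2 and 1 without 4 h replicate 2, and the step from 4 h to 8 h gave 0 without either 4 h library or 8 h replicate 1, 2 without 8 h replicate 2, and 3 with library totals alone.

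In Mo.6C+ after 1 ng of LPS, 5 of 38 tested members rose (background 10.2%; median 0.21). Nop58 had 134, 106 and 82.8 CPM after LPS against 31.8, 42.6 and 29.9 CPM after PBS, with no overlap (1.63 ± 0.28, adjusted p = 0.00365). Noc4l (1.34 ± 0.26, adjusted p = 0.0061), Wdr43 (1.32 ± 0.30, adjusted p = 0.0136), Ltv1 (1.15 ± 0.29, adjusted p = 0.0212) and Rrs1 (1.11 ± 0.30, adjusted p = 0.0281) were the others. Wdr12 had the lowest log2 fold change (-1.12 ± 0.55, adjusted p = 0.195), with 14.5, 10.7 and 8.59 CPM after LPS against 9.89, 48.0 and 16.3 CPM after PBS. The groups overlapped, and PBS replicate 2 alone stood far above the LPS libraries. Red pulp macrophage markers summed to 1189.8 to 1971 CPM after LPS, against 644 to 785 CPM after PBS. Neutrophil markers summed to 615 to 789.8 CPM after LPS, against 229 to 366 CPM after PBS. Plasma cell markers (3 genes) ranged from 2.17 to 658 CPM after LPS, against 1.14 to 8.07 CPM after PBS. The part of these markers in the result was not tested. The count was 2 without PBS replicate 1 or 3 or LPS replicate 2, and 3 with library totals alone, which moves the median of all genes by -0.42.

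Myc itself rose in 10 of 12 cell types tested after IL1b, in 0 of 13 after IL6 and in 7 of 13 after TNFa. In MFpc it had 828.8, 639 and 707 CPM after IL1b, 151, 233 and 137 CPM after IL6 and 427, 419 and 385 CPM after TNFa, against 111, 173, 171, 157 and 175 CPM after PBS. The IL6 libraries overlapped those of PBS (0.14 ± 0.15, adjusted p = 0.596; 95% interval -0.16 to 0.45), in the comparison in which 37 members rose, while Myc rose by 2.20 ± 0.15 (adjusted p = 4.26e-10) after IL1b and by 1.38 ± 0.15 (adjusted p = 1.76e-07) after TNFa. In T.4 after IL6, with 9 members raised, the 95% interval of the change of Myc was -0.26 to 0.26, and in Treg after IL6, with 6 members raised, Myc was at -0.52 ± 0.19 (adjusted p = 0.318). When single libraries were left out, these counts ranged from 4 to 9 in T.4 and from 0 to 6 in Treg.

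In follicular B cells Myc rose after IL1b and TNFa, and few members did. Myc in B.fo had 378, 411 and 316 CPM after IL1b, 152 and 103 CPM after IL6 and 266, 265 and 257 CPM after TNFa, against 109.7, 144, 142, 118 and 151 CPM after PBS. It rose by 1.47 ± 0.13 (adjusted p = 1.46e-06) after IL1b and by 0.98 ± 0.13 (adjusted p = 0.000195) after TNFa, where 2 and 3 members rose. In Mo.6C+ Myc rose by 3.68 ± 0.40 (adjusted p = 2.66e-06) after IL1b and by 2.03 ± 0.40 (adjusted p = 0.000477) after TNFa. In NK it rose by 1.13 ± 0.17 (adjusted p = 0.000471) after IL1b and by 1.40 ± 0.17 (adjusted p = 1.23e-05) after TNFa. In MZB it rose by 1.89 ± 0.17 (adjusted p = 1.59e-07) after IL1b and by 1.75 ± 0.17 (adjusted p = 6.89e-07) after TNFa. It rose further in MFpc than in MFrp after IL1b (difference of responses 1.51 ± 0.36, adjusted p = 0.0115). In the time course Myc in MFpc was highest at 2 h (1.87 ± 0.21 at 2 h, 1.24 ± 0.21 at 4 h, 0.94 ± 0.21 at 8 h and 0.51 ± 0.21 at 24 h). In Mo.6C+ it stayed near the same level up to 8 h (2.46 ± 0.35 at 2 h, 2.44 ± 0.35 at 4 h, 2.40 ± 0.35 at 8 h and -0.17 ± 0.36 at 24 h). Myc rose after LPS as well (2.05 ± 0.51, adjusted p = 0.0191). Only the RNA of Myc was measured, not its protein or its binding, and its part in the changes of the members was not tested.

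**Figure D5:**
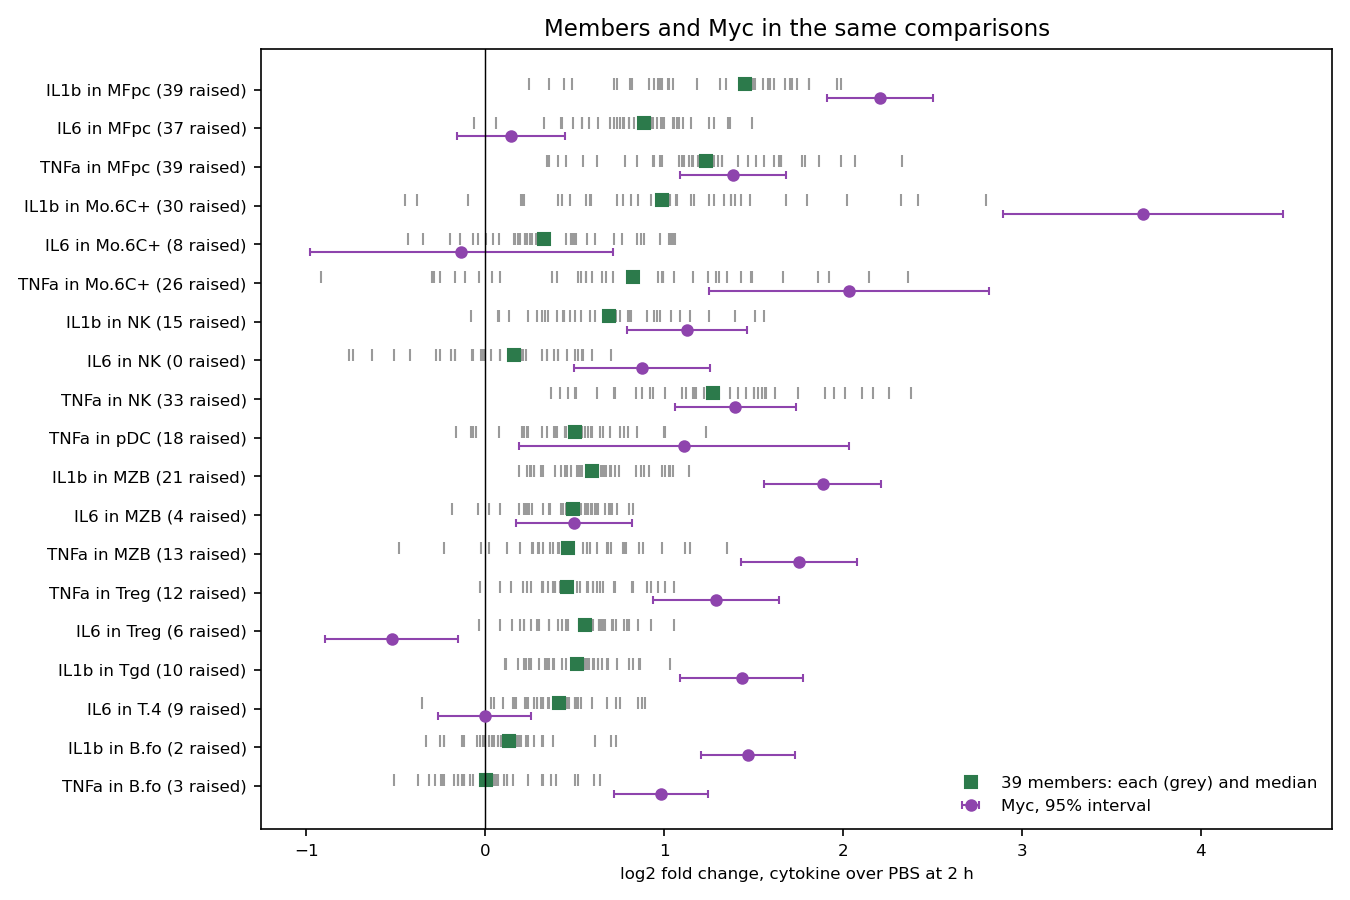
Log2 fold change against PBS in 19 comparisons for each member (grey ticks), the median of the members (green squares) and Myc (purple, with its 95% interval). In MFpc after IL6 the members other than Npm1 lie above 0 while the interval of Myc includes 0, and in B.fo after IL1b Myc lies above 0 while the members range from -0.33 to 0.73.

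The other genes of the pathway were listed apart from the members. For these lists, here and below, the background of raised genes in each comparison is the one given above for the members. The background of lowered genes is not given for MFpc or MZB against PBS, or for TNFa in Mo.6C+. Counts of listed genes that fell there cannot be set against it. Of 88 tested other ribosome assembly factors in MFpc, 70 rose and 2 fell after IL1b (median 0.80), 53 rose after IL6 (median 0.51) and 72 rose and 3 fell after TNFa (median 0.87), with the smallest adjusted p for the processome protein Utp4 after IL1b (1.77 ± 0.12, adjusted p = 2.21e-10) and IL6 (1.28 ± 0.12, adjusted p = 1.99e-07) and for Rcl1 after TNFa (2.33 ± 0.11, adjusted p = 5.02e-13). In Mo.6C+ 49 rose and 2 fell after IL1b, 8 rose after IL6 and 59 rose and 3 fell after TNFa. In NK 43 rose after TNFa and 12 after IL1b, and in MZB 10 rose after IL1b and 4 rose and 1 fell after TNFa. In the MFpc course 54, 68, 44 and 1 were raised at 2, 4, 8 and 24 h, and in that of Mo.6C+ 51, 49 and 28 were raised at 2, 4 and 8 h, while the smallest adjusted p at 24 h was 0.13.

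The cytosolic ribosomal proteins, which are the products the pathway assembles, moved less. Of 77 in MFpc, 6 rose after IL1b (median 0.06) and 36 after TNFa (median 0.25); after IL6 their median was 0.02 and the smallest adjusted p was 0.102, that of Rps12. They were led after TNFa by Rps9 (0.54 ± 0.08, adjusted p = 7.22e-06). In NK 13 rose after TNFa, and in Mo.6C+ 3 rose and 1 fell. Against the backgrounds of raised genes, the raised share of ribosomal proteins was lower in MFpc after IL1b and in Mo.6C+ after TNFa. In MFpc and NK after TNFa it was higher. Of 18 other RNA polymerase I subunits and factors in MFpc, 9 rose and 1 fell after IL1b, 5 rose after IL6 and 11 rose and 2 fell after TNFa. Of 40 translation initiation and elongation factors, 27 rose after IL1b, 18 after IL6, and 30 rose and 1 fell after TNFa in MFpc. Of 18 genes of nucleotide synthesis, 9 rose and 4 fell after IL1b, 7 rose and 1 fell after IL6, and 9 rose and 6 fell after TNFa.

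Levels without a cytokine differed between cell types. Over the PBS groups of the 14 cell types, on a common scale, T.8 had the highest mean CPM for 20 of the members, MZB for 6, DC.8+ for 4 and MFpc for 3, and GN had the lowest for 35 and MC for 4. The shares of all genes that are highest or lowest in each cell type are not given, so these counts cannot be read as particular to the members. Nop58 ran from 2.08 ± 2.02 CPM in GN (SD, n = 5) through 40.4 ± 6.08 in Mo.6C+ (n = 5), 53.8 ± 10.4 in NK (n = 5), 62.4 ± 16.5 in MC (n = 4) and 71.3 ± 9.96 in pDC (n = 5) to 119 ± 15.1 in Treg (n = 5) and 127 ± 25.7 in T.8 (n = 4). Between these, Tgd, MFpc, MFrp, MZB, DC.8+, B.fo and T.4 had means of 95.1 to 108.5 CPM, and these neighbours overlapped within their SDs. Gnl3 stood at 14.8 ± 2.04 CPM in Mo.6C+ and 69.5 ± 9.40 CPM in MFpc (n = 5 each), a difference of 2.19 ± 0.15 (adjusted p = 9.7e-13) on the log2 scale. In all, 19 members were higher and 3 lower in MFpc than in Mo.6C+ after PBS (background 24% and 26.7%). Between MFpc and MFrp 4 were higher and 4 lower (background 17.5% and 23.9%), and between MZB and B.fo 6 were higher and 2 lower (background 9.49% and 8.59%).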

How the data were processed

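RNA was sequenced from 209 libraries of double-sorted mouse immune cells. The submitters' processing notes name the aligner STAR 2.7.3a, the build mm10 and the counter featureCounts. Its version, its gene models, whether it used strand and what it did with multi-mapping reads are not given in sources used here. The deposited table holds whole-number counts per gene, not normalized by the authors, for 55011 genes in 209 libraries of 1094567 to 9291121 counts, and 0 of its columns lacked a sample. Counts were scaled by TMM within each cell type or experiment, genes of low count were left out by filterByExpr, and edgeR 4.0.16 (R 4.3.3, limma 3.58.1) fitted quasi-likelihood models to all genes of the cell type, with all its groups in the fit. Adjusted p-values follow Benjamini and Hochberg over all genes tested. CPM and log2 fold changes were computed here from the deposited counts with a prior count of 2 on the log2 scale, and 95% intervals of a fold change are 1.96 standard errors on either side.

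Differences of responses between cell types came from 1 fit over both. Groups follow the sample titles; for 158 splenic libraries the tissue label names the peritoneal cavity, and the titles were followed. Within a cell type or experiment, replicate numbers did not pair libraries: 0 of 62 pairs of groups with 3 or more shared numbers had every correlation of deviations over 0.1. Pairing between cell types was not checked, and the differences of responses treat the libraries of both cell types as independent. No 2 replicates held identical counts, and the chi-square per degree of freedom of 251 replicate pairs was 3.04 to 76.0. Alternatives were RLE scaling, library totals, no filter, a replicate block, DESeq2 1.42.0 and leaving out each library; library totals, DESeq2 and left-out libraries for direct contrasts and steps between times, and left-out libraries for differences of responses, were chosen after seeing the data. The fits were tested on simulated data. The 39 members and the gene lists were chosen with earlier results of these data known. For each comparison with 10 or more members called, the rule named the member with the smallest adjusted p of each role (in the time course, at 4 h), and in every comparison the members with the highest and lowest fold change. Some of those members are given by fold change alone or not at all, which departs from the rule, and other named members were chosen after their values were seen. Gene positions came from GENCODE vM21 and promoters from RefSeq (GRCm38.p6). Figures were drawn with matplotlib 3.10.9.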

Additional observations from a re-analysis of the deposited data

Results flagged for a closer look

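Among the 14 PBS groups of the screen, 1 library stood apart in the mean level of the 39 members: B.fo PBS replicate 4 had 6.06 log2 CPM, against 6.18 to 6.22 in the other B.fo PBS libraries. Chance marks about 1 group in 20 in this way. The members raised in B.fo without that library were 0 after IL1b and 0 after TNFa.

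Differences between cell types in the same response were marked where the test of the difference itself passed. Between MFpc and MFrp it passed for 11 members after IL1b, 10 after IL6 and 9 after TNFa, each of them larger in MFpc. Between MFpc and Mo.6C+ it passed for 8 after IL1b, 1 after IL6 and 15 after TNFa, in both directions after IL1b and TNFa. Between MZB and B.fo it passed for 1 after IL1b and 2 after TNFa, each larger in MZB.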

How the results depend on the processing

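RLE scaling left 74 of 76 counts of members within 1.5 times the reported count, library totals 50 of 67, no filter on low counts 61 of 76, the replicate block 57 of 76 and DESeq2 54 of 67. The counts in MFpc after each cytokine, in Mo.6C+ and NK after IL1b and TNFa, in MZB after TNFa and at 2 and 4 h of the course stayed within 1.5 times when any library was left out, and with the block; with library totals Mo.6C+ after TNFa gave 16, and at 2 h the course gave 16 in MFpc and 12 in Mo.6C+. The numbers of replicates do not pair the libraries within a cell type, and between cell types this was not checked, so the block is given as a value only.

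With the replicate block, the raised members were 0 for IL1b and 0 for TNFa in B.fo, 1 and 2 in DC.8+, 4 and 5 in MFrp, 3 and 1 in Tgd, 3 and 5 in Treg, 0 for IL6 in Treg, 1 for TNFa in MC, 5 for IL6 in Mo.6C+ and 0 for IL6 in T.8. Under the block 1 member differed between TNFa and IL1b in Mo.6C+, and the responses differed for 4 (IL1b) and 2 (IL6) members between MFpc and Mo.6C+ and for 0 (IL1b) and 0 (TNFa) between MZB and B.fo.

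With library totals, TNFa gave 2 raised members in DC.8+, 1 raised and 13 lowered in GN, 5 raised in MFrp, 16 in Mo.6C+ and 9 in pDC, IL1b gave 1 in T.4, IL6 gave 1 in T.8 and LPS gave 3. On that scale 13 members differed between IL1b and IL6, 8 between TNFa and IL6 and 11 between TNFa and IL1b in MFpc, 7 between TNFa and IL6 in Mo.6C+, 11 between 4 h and 2 h in MFpc and 3 between 8 h and 4 h in Mo.6C+.

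With no filter, the raised members were 1 for IL6 in B.fo, 5 for IL1b in DC.8+, 5 for TNFa in MC, 8 for IL6 in MZB, and 4 (IL1b), 19 (IL6) and 6 (TNFa) in T.8. Then 0 differed between TNFa and IL1b in MFpc, 10 between 4 h and 2 h in MFpc, 5 between 4 h and 2 h and 2 between 8 h and 4 h in Mo.6C+. The responses differed for 5 (IL1b, MFpc and MFrp), 4 (IL6, MFpc and Mo.6C+), 3 (IL1b) and 4 (TNFa, MZB and B.fo).

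DESeq2 called 1 for IL6 in B.fo, 2 for IL6 in GN, 1 for IL6 in MC, 15 for IL6 in MZB, 5, 21 and 5 for IL1b, IL6 and TNFa in T.8, 11 for TNFa in Tgd and 11 for IL6 in Treg. It called 5 between TNFa and IL1b in MFpc, 14 between TNFa and IL1b in NK, 10 between TNFa and IL6 in T.4 and 8 between 4 h and 2 h in MFpc. RLE scaling gave 4 for IL1b in MFrp and 9 for the TNFa response between MFpc and Mo.6C+. Without the 2 libraries with erythroid markers DC.8+ had 0 raised after IL1b and 2 after TNFa, and without the 3 haemoglobin-rich PBS libraries MFrp had 0 lowered after TNFa.

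Leaving out each library in turn gave these lowest and highest counts of raised members. For IL1b they were 0 to 1 in B.fo, 0 to 4 in DC.8+, 1 to 5 in GN, 0 to 1 in MC, 0 to 12 in MFrp, 11 to 24 in MZB, 0 to 4 in T.4, 0 to 1 in T.8, 2 to 9 in Tgd and 3 to 6 in Treg. For IL6 they were 0 to 2 in GN, 1 to 3 in MZB, 4 to 10 in Mo.6C+, 4 to 9 in T.4, 0 to 0 in T.8 and 0 to 6 in Treg. For TNFa they were 0 to 2 in B.fo, 2 to 10 in DC.8+, 1 to 4 in MC, 6 to 14 in MFrp, 0 to 2 in T.8, 0 to 8 in Tgd, 5 to 13 in Treg and 9 to 20 in pDC, with 5 to 8 lowered in GN and 1 to 2 lowered in MFrp. In the course they were 17 to 28 at 8 h and 0 to 9 at 24 h in MFpc and 18 to 27 at 8 h in Mo.6C+, and after LPS 2 to 5.

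The members that differed between cytokines were 12 to 22 (IL1b and IL6) and 0 to 3 (TNFa and IL1b) in MFpc, 1 to 6 (TNFa and IL1b) in Mo.6C+, 11 to 27 (TNFa and IL6) and 0 to 3 (TNFa and IL1b) in NK and 1 to 4 (TNFa and IL6) in T.4. Between times they were 1 to 1 (4 h and 2 h), 1 to 4 (8 h and 4 h) and 17 to 36 (24 h and 8 h) in MFpc and 1 to 12, 0 to 2 and 15 to 26 in Mo.6C+. For differences of responses they were 2 to 15 (IL1b), 1 to 12 (IL6) and 6 to 15 (TNFa) between MFpc and MFrp, 3 to 9, 1 to 3 and 5 to 13 between MFpc and Mo.6C+, and 0 to 6 (IL1b) and 0 to 2 (TNFa) between MZB and B.fo. Of the values of single named members under all settings, 1618 kept their direction and side of the threshold, 90 no longer passed it and 26 newly passed it. The sign turned in 2: Polr1a at 2 h in Mo.6C+ was 0.21 without PBS 24 h replicate 2 and 0.03 without TNFa 2 h replicate 1, in a range of -0.39 to 0.21 over the left-out libraries. The cause of these changes was not tested, beyond the fewer libraries each fit holds. Groups of 2 or 3 libraries and, in GN, few counts per gene limit the precision.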

Other observations

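The cytosolic ribosomal proteins, whose assembly the 39 members serve, fell in follicular B cells, where after TNFa 3 of the 39 members rose, 0 fell and 5 had an unadjusted p under 0.05 in edgeR. In B.fo 49 of 77 fell and none rose after TNFa (background 1.7% of all genes lowered; median -0.43; edgeR), and 14 fell after IL6 (background 0.212%; 2 libraries; median -0.45), with the smallest adjusted p for Rps26 after TNFa (-0.81 ± 0.12, adjusted p = 0.000507) and Rps2 after IL6 (-0.88 ± 0.14, adjusted p = 0.0137). The members had a median of 0.00 after TNFa in the same cells. The libraries held 6872067 to 8014028 counts after TNFa and 6553203 to 9291121 after IL6 in B.fo, against 2555640 to 4485774 after PBS, and the part of depth in the result was not tested.

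Genes of nucleotide synthesis, which supply the precursors of ribosomal RNA, had Ctps (CTP synthase) at 2.08 ± 0.18 (adjusted p = 8.86e-09) after IL1b and 1.82 ± 0.18 (adjusted p = 4.41e-07) after IL6 in MFpc. Mxd4, a Max partner that opposes Myc, fell in MFpc after IL6 (-0.88 ± 0.14, adjusted p = 0.000204), where Myc itself did not pass the test. Mxd4 is 1 of 12 listed genes of the Myc network, chosen after its value was seen, and the share of all genes lowered in that comparison is not given. Its part in the rise of the members was not tested.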
